A study of Mus musculus with 15 samples.

Results

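The collecting duct is the last segment of the kidney tubule, where the final water and sodium content of urine is set. The 10 genes described here are Aqp2, Aqp3, Aqp4, Aqp6, Avpr2, Scnn1a, Scnn1b, Scnn1g, Atp6v1b1 and Foxi1, chosen by name as genes of water and sodium handling in that duct and of its acid-secreting cells. All 10 were found among the 46517 genes of the RNA count tables, and 9 passed the filter on low counts. The study deleted Dnmt1, the methyltransferase that copies CpG methylation at DNA replication, with a Cre recombinase driven by Six2, a gene of the progenitors that form the nephron.

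The RNA samples came from C57BL/6 mice at postnatal day 0 (P0). They comprised 3 controls with floxed Dnmt1 alleles (Dnmt1 f/f) and 3 knockouts (KO) that carried Six2Cre on the same floxed background (Six2Cre Dnmt1 f/f). Reduced representation bisulfite sequencing (RRBS), which reads methylation in restriction fragments rich in CpG, covered 3 controls and 3 KO samples of these genotypes at P0, and 3 wild-type adults of 6 weeks. The labels give Six2+ cells as the source, while their protocol describes DNA from whole kidneys, so all are called kidney samples here. Nothing in the labels states that the samples of a group came from separate animals, so the p-values measure the spread between these samples, which may be technical.

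As background, the collecting duct grows from the ureteric bud, and the Six2+ progenitors give rise to the glomerular epithelium, the tubule and the connecting tubule that joins it to the duct. In principal cells, vasopressin binds the receptor Avpr2, raises cyclic AMP and moves the water channel Aqp2 to the luminal membrane. Water then leaves through Aqp3 and Aqp4 on the opposite side, and sodium enters through ENaC, a channel of the subunits Scnn1a, Scnn1b and Scnn1g. Intercalated cells secrete acid or base with a proton pump that contains Atp6v1b1, under the transcription factor Foxi1, and hold Aqp6 in intracellular vesicles. Several of these genes are also active in the connecting tubule, so the list is not limited to cells of the ureteric lineage.

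The genes lie on 6 autosomes and the X chromosome (build GRCm38, annotated gene bounds). Aqp2 (chr15:99579056-99584545) and Aqp6 (chr15:99598468-99605478) are neighbours on chromosome 15 with Aqp5 between them. Scnn1g (chr7:121734420-121768482) and Scnn1b (chr7:121865038-121918728) are neighbours on chromosome 7, 96555 bases apart. Aqp3 lies at chr4:41092724-41098183, Scnn1a at chr6:125314271-125344943, Atp6v1b1 at chr6:83743017-83758855, Foxi1 at chr11:34204341-34208089, Aqp4 at chr18:15389394-15410982 and Avpr2 at chrX:73891765-73894428. A long noncoding RNA gene, Gm34765, covers all 5490 bases of Aqp2 and 3075 bases of Aqp6, and another, A830021F12Rik, overlaps Aqp4 by 14359 bases. The strand setting of the counting is not given in the sources used here, so reads of these overlapping genes may not be told apart.

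RNA totals ranged from 26773937 to 34102567 gene counts per sample, with 22.86 to 35.81% of reads not assigned to a gene. Dnmt1, the targeted gene, measured 180.0, 156 and 188 CPM (counts scaled to the size of each library) in controls 1 to 3 and 109.9, 111 and 93.7 CPM in KO samples 1 to 3 (log2 fold change -0.74, SE 0.12, edgeR adjusted p = 0.00577). Markers of proximal tubule, podocyte, stroma, endothelium and nephron progenitors were all present in every library, not those of progenitors alone. The summed level of 10 proximal tubule genes was 1992 to 4941 CPM in controls (1992 and 2184 CPM without control 3) and 393 to 459 CPM in KO. Control 3 had the highest of these sums and stands apart in several results below. The RRBS samples held 18424875 to 88765177 calls, and KO 3 was the shallowest, with a median of 4 calls per position.

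The 250 bases upstream of the start are shown for 4 genes, because the start regions differed in CpG content and in what RRBS could read there. RefSeq sequences (GRCm38.p6) were matched for 8 of the 10 genes; Aqp4 and Scnn1a had no entry. Each sequence reads 5′ to 3′ on the strand of its gene, with every CpG in capitals. Aqp2 is chr15:99578806-99579055 on the plus strand, Scnn1g is chr7:121734229-121734478 on the plus strand, Atp6v1b1 is chr6:83742767-83743016 on the plus strand and Foxi1 is chr11:34208090-34208339 on the minus strand.
Aqp2: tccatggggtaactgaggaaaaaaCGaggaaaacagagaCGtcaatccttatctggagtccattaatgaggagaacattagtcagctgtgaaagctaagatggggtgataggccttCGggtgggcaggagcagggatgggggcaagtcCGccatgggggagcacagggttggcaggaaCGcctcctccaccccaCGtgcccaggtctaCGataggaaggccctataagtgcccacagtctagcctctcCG
Scnn1g: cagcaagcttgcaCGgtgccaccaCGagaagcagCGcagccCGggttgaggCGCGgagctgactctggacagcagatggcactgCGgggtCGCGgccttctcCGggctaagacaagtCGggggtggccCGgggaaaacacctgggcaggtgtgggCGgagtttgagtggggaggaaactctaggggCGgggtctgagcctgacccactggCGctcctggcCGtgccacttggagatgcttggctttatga
Atp6v1b1: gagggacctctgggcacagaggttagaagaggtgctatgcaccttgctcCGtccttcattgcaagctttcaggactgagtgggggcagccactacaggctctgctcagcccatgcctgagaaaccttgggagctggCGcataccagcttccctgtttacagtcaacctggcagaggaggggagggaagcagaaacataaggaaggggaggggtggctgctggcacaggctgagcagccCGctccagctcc
Foxi1: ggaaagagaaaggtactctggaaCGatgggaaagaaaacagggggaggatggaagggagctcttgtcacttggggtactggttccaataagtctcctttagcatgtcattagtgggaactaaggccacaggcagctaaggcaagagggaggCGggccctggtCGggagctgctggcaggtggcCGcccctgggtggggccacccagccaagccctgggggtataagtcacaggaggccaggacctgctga

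Scnn1g had 16 CpGs in this window, Aqp3 14, Aqp2 8, Scnn1b 7, Foxi1 4, Aqp6 and Atp6v1b1 3 each, and Avpr2 none, against a median of 6 over 32851 starts in the table. The cyclic AMP response element core TGACG, searched on both strands, was found upstream of Aqp2 alone among the 8 genes, as CGTCA with its first letter 211 bases before the start (-211). It occurs in 17.8% of all upstream sequences of this length. The RRBS cutting site CCGG, which reads the same on both strands, occurred 3 times upstream of Scnn1g, at -210, -149 and -123, once each upstream of Aqp3, Aqp6 and Scnn1b, and not upstream of the other 4. Across all starts, 47.1% had at least 1 CCGG. These matches describe letters in the window and not sites in use.

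In KO kidneys, 4 of the 9 genes tested had lower RNA levels than in controls and none had higher levels. By the edgeR fold change, Atp6v1b1, Aqp6 and Scnn1a fell to 23.8%, 28.1% and 36.0% of their control level, and Aqp3 fell to 56.1%. Aqp2, Aqp4, Scnn1b, Scnn1g and Foxi1 did not pass the test, and Avpr2 was too low to test. The test was the quasi-likelihood test of edgeR with an adjusted p under 0.05, which called 8.23% of all 18132 genes lower in KO and 6.36% higher. The median log2 fold change was -0.83 over the 9 genes and -0.00 over all genes tested. DESeq2 and limma voom each called 4 of them lower and 0 higher; at an unadjusted p under 0.05, edgeR, DESeq2 and limma voom each had 0 higher. Without control 3, 5 were lower, and without control 1, KO 1 or KO 3, 2 were lower. In whole kidney samples, fewer cells of a type and less RNA per cell cannot be told apart.

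**Figure D1:**
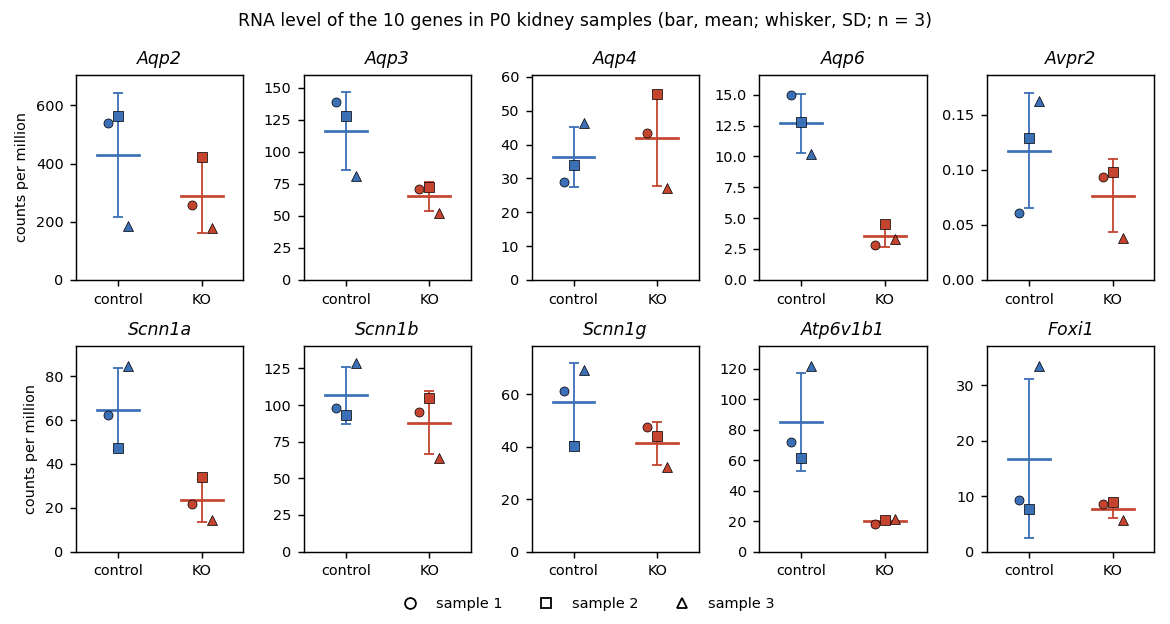
RNA level of the 10 genes in CPM (vertical axis, from 0, with its own scale in each panel) in 3 control and 3 KO kidney samples at P0. Points are samples, horizontal bars are means and whiskers are SDs. The KO points of Aqp3, Aqp6, Scnn1a and Atp6v1b1 lie below every control point, and control 3 is the lowest control for Aqp2 and the highest for Foxi1.

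Aqp2 (ENSMUSG00000023013.4) forms the vasopressin-regulated water pore of principal cells. It measured 540.2, 564 and 185 CPM in controls 1 to 3 and 257, 424 and 179 CPM in KO samples 1 to 3. Controls 1 and 2 were the highest of the 6 samples, control 3 was as low as the lowest KO sample, and the groups overlapped. Controls averaged 429.9 ± 212 CPM and KO samples 287 ± 126 CPM (SD, 3 samples in each group). Its log2 fold change of -0.58 (SE 0.44, 95% interval -1.60 to 0.43) did not pass the test (edgeR adjusted p = 0.453). This interval includes both no change and the fold change of Aqp3 given next. Without control 3 the log2 fold change was -0.95 and passed (edgeR adjusted p = 0.0384), so 1 library decides this call.

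Aqp3 (ENSMUSG00000028435.8), a basolateral channel for water and glycerol, measured 139, 128 and 81.5 CPM in controls and 71.1, 72.6 and 52.0 CPM in KO samples. Every KO sample lay below every control, with control 3 the nearest to them. Across all genes tested, 17.8% had every KO sample below every control. For Aqp3 the log2 fold change was -0.83 (SE 0.22, 95% interval -1.33 to -0.34, edgeR adjusted p = 0.0372). The call was lost when any sample other than control 3 was left out, with log2 fold changes from -0.92 to -0.69 and edgeR adjusted p from 0.0777 to 0.134. Without control 3 the log2 fold change was -1.03 (edgeR adjusted p = 0.00120).

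Aqp4 (ENSMUSG00000024411.9) is the second basolateral water channel of principal cells. Its level was 29.0, 33.8 and 46.3 CPM in controls and 43.5, 54.9 and 27.1 CPM in KO samples. The highest and the lowest of the 6 values were both KO samples, and the groups overlapped fully. Its log2 fold change was 0.20 (SE 0.27, 95% interval -0.41 to 0.82, edgeR adjusted p = 0.695). Without KO 2 it was -0.05 (edgeR adjusted p = 0.949). Control 3, the lowest control for Aqp2 and Aqp3, was the highest for Aqp4.

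Avpr2 (ENSMUSG00000031390.8), the vasopressin V2 receptor, had 2, 4 and 6 counts in controls, and the KO samples had 3, 3 and 1. These counts did not pass the filter on low counts, so no fold change is given and a difference was not detectable at this depth. The gene also overlaps Arhgap4 by 77 bases.

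Aqp6 (ENSMUSG00000043144.5), the vesicle aquaporin of intercalated cells, measured 15.0, 12.8 and 10.2 CPM in controls. The KO samples had 2.80, 4.56 and 3.31 CPM, all below the lowest control. Group means were 12.7 ± 2.39 CPM and 3.56 ± 0.903 CPM (SD, 3 samples in each group), and the log2 fold change was -1.83 (SE 0.25, 95% interval -2.41 to -1.24, edgeR adjusted p = 0.00251). It passed the test with each sample left out in turn, where it ranged from -2.05 to -1.68.

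Of the ENaC subunits, 1 of 3 passed the test. Scnn1a (ENSMUSG00000030340.15), the alpha subunit, which is needed for a working channel, measured 62.1, 47.3 and 84.8 CPM in controls and 21.6, 34.0 and 14.3 CPM in KO samples. All KO values lay below the lowest control, and the group means were 64.8 ± 18.9 CPM and 23.3 ± 9.93 CPM (SD, 3 samples in each group). This gave a log2 fold change of -1.47 (SE 0.32, 95% interval -2.21 to -0.73, edgeR adjusted p = 0.0189). The call was lost without control 1 (edgeR adjusted p = 0.0532), without KO 1 (0.0849) or without KO 3 (0.0512), with log2 fold changes between -1.52 and -1.22.

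Scnn1b (ENSMUSG00000030873.8), the beta subunit, measured 97.7, 93.1 and 129 CPM in controls and 95.1, 105 and 63.9 CPM in KO samples. KO 2 was above controls 1 and 2, and only KO 3 was below every control. Between the groups the log2 fold change was -0.28 (SE 0.20, 95% interval -0.75 to 0.19, edgeR adjusted p = 0.438). Scnn1g (ENSMUSG00000000216.8), the gamma subunit, measured 61.2, 40.2 and 69.2 CPM in controls and 47.4, 44.1 and 32.1 CPM in KO samples. Its groups overlapped because control 2 was below KO samples 1 and 2. The log2 fold change was -0.46 (SE 0.22, 95% interval -0.97 to 0.05, edgeR adjusted p = 0.219). Scnn1b and Scnn1g were the closest pair among the 9 genes tested: their log2 CPM values, each centred on its own mean over the 6 samples, differed by a root mean square of 0.191, against 0.637 for Scnn1a and Scnn1b. KO 3 was the lowest of the 6 samples for all 3 subunits.

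Ratios of counts within a sample do not depend on how libraries are scaled, and 10 such ratios were computed, a choice made after seeing the data. Scnn1a counts per Scnn1b count were 0.635, 0.509 and 0.657 in controls and 0.227, 0.324 and 0.224 in KO. The ratio was lower in 3 of 3 KO samples, with a log2 difference of -1.23. Scnn1a per Scnn1g fell from 1.01, 1.18 and 1.23 to 0.456, 0.771 and 0.446 without overlap. By contrast, Scnn1g per Scnn1b was 0.627, 0.432 and 0.536 in controls and 0.499, 0.421 and 0.503 in KO, with overlap. The two-sided exact permutation p was 0.1 for each Scnn1a ratio, the smallest that 3 samples against 3 allow, and 0.4 for Scnn1g per Scnn1b. Adjusted over the 10 ratios, these were 0.25 and 0.5, so none passed. The ratios use read counts, with no correction for transcript length, and compare samples only.

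**Figure D2:**
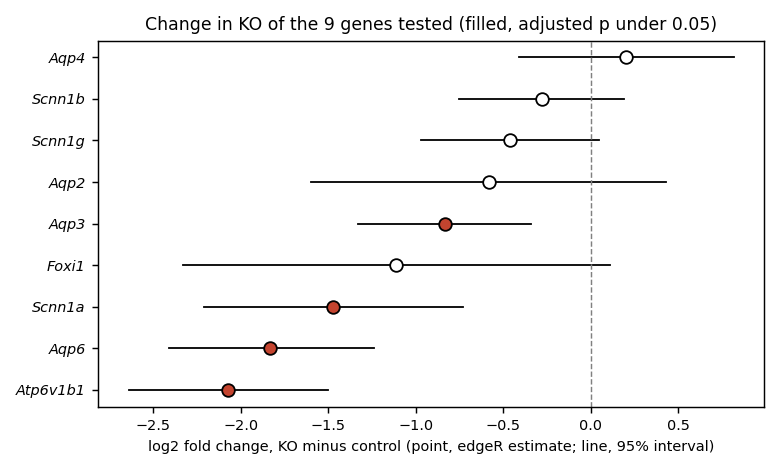
Log2 fold change of KO minus control (horizontal axis) for the 9 genes tested, as edgeR estimates with 95% intervals. Filled points have an adjusted p under 0.05. Atp6v1b1 at -2.07, Aqp6 at -1.83, Scnn1a at -1.47 and Aqp3 at -0.83 are filled, and the intervals of Aqp2 and Foxi1 are the widest.

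Atp6v1b1 (ENSMUSG00000006269.6), the B1 subunit of the vacuolar proton pump, showed the lowest log2 fold change of the 9 genes. It measured 71.7, 61.7 and 122 CPM in controls and 18.3, 20.8 and 21.6 CPM in KO samples. The KO values lay close together and the lowest control was well above all of them. Means were 85.0 ± 32.2 CPM and 20.2 ± 1.76 CPM (SD, 3 samples in each group), a log2 fold change of -2.07 (SE 0.25, 95% interval -2.64 to -1.50, edgeR adjusted p = 0.00134). With each sample left out it ranged from -2.26 to -1.72 and passed every time.

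Foxi1 (ENSMUSG00000047861.2), the forkhead factor required for intercalated cells and a known activator of Atp6v1b1, measured 9.26, 7.67 and 33.4 CPM in controls and 8.54, 8.98 and 5.78 CPM in KO samples. Control 3 was the only sample above 10 CPM, and controls 1 and 2 lay within or next to the KO range. The log2 fold change was -1.11 (SE 0.53, 95% interval -2.33 to 0.11, edgeR adjusted p = 0.218). Without control 3 it was -0.12 (edgeR adjusted p = 0.721). Thus the low Foxi1 estimate rests on 1 control, while that of Atp6v1b1 without the same control was -1.72 (edgeR adjusted p = 3.18e-05). Foxi1 counts per Atp6v1b1 count were 0.129, 0.124 and 0.274 in controls and 0.468, 0.431 and 0.267 in KO, which overlapped at control 3 and KO 3 (exact permutation p = 0.2, adjusted over 10 ratios 0.333).

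The genes with the profile closest to Aqp2 and Foxi1 were picked over the same 6 samples. Control 3 stands apart in both profiles, so genes picked in this way follow control 3 by choice. For Aqp2 they were Adamts17, Hipk2 and Irs2, at a root mean square difference in centred log2 CPM of 0.334, 0.349 and 0.355. For Foxi1 they were Myo19 (0.181), Zfp949 (0.208) and Rab11fip3 (0.214). Myo19, for example, measured 21.7, 21.8 and 67.9 CPM in controls and 20.3, 20.8 and 17.9 CPM in KO. Among pairs of the 9 genes, Aqp2 and Foxi1 were the farthest apart, at 1.20, and Aqp2 and Aqp3 stood at 0.409.

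Genes of the intercalated cell outside the 10 were lower in KO in most cases. Of 19 listed, 18 were tested, 12 fell and 0 rose, with a median log2 fold change of -1.62, against -0.00 over all genes. Those with the smallest p were 2 pump subunits and 2 ammonia transporters. Atp6v0a4, the a4 subunit of the pump, measured 75.2, 77.6 and 118 CPM in controls and 18.9, 21.8 and 18.9 CPM in KO (log2 fold change -2.19, SE 0.19, edgeR adjusted p = 3.49e-04). Atp6v1g3, another intercalated cell pump subunit, had a log2 fold change of -2.15 (edgeR adjusted p = 8.77e-04). The ammonia transporters Rhcg and Rhbg had values of -1.50 (0.00107) and -2.32 (0.00257).

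Among anion exchangers of the list, Slc4a1, Slc4a9 and Slc26a4 passed the test. Slc4a9, named here after its values were seen, measured 41.2, 47.6 and 127 CPM in controls and 16.9, 18.2 and 12.8 CPM in KO (log2 fold change -2.17, edgeR adjusted p = 0.0106). Slc4a1, the exchanger of acid-secreting cells, measured 7.65, 5.15 and 15.1 CPM in controls and 2.31, 1.67 and 3.80 CPM in KO (log2 fold change -1.85, edgeR adjusted p = 0.0305). It is also a red cell gene. All 6 red cell genes tested had negative log2 fold changes, with a median of -0.48, and only Slc4a1 passed. The globin genes Hbb-bs and Hba-a1 had -0.06 and -0.64 (edgeR adjusted p = 0.954 and 0.221), and the red cell gene Alas2 had -0.69 (0.163). The part of red cells in the Slc4a1 value was not tested. Slc26a4, the exchanger pendrin of base-secreting cells, measured 2.35, 3.07 and 14.3 CPM in controls and 0.405, 0.525 and 0.722 CPM in KO (log2 fold change -3.58, edgeR adjusted p = 0.0152). Control 3 was the highest sample for Slc4a1, Slc4a9 and Slc26a4, as for Foxi1. Without control 3 the values were -1.31 for Slc4a1 (edgeR adjusted p = 0.0218) and -2.30 for Slc26a4 (edgeR adjusted p = 0.00115). The Slc4a1 call was lost without control 1, KO 1 or KO 2 (edgeR adjusted p = 0.0609, 0.122 and 0.109), and the Slc26a4 call without KO 1, KO 2 or KO 3 (0.0760, 0.0628 and 0.0531). Slc26a7, another anion exchanger of acid-secreting cells, named here after its values were seen, measured 13.6, 15.6 and 11.4 CPM in controls and 9.42 to 11.4 CPM in KO. Its groups overlapped, and its log2 fold change of -0.39 did not pass (edgeR adjusted p = 0.209). The transcription factor Tfcp2l1, active in principal and intercalated cells, had a log2 fold change of -0.80 that did not pass (edgeR adjusted p = 0.0640). Of the whole list, 14 genes were lower without control 3, 8 without KO 1 or without KO 3, and 7 at an adjusted p under 0.01.

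The summed level of 6 intercalated cell markers (Atp6v1b1, Foxi1, Atp6v0d2, Atp6v1g3, Slc4a1 and Slc26a4) was 109 to 235 CPM in controls (109 and 120.2 CPM without control 3) and 40.7 to 46.1 CPM in KO, with 5 of 6 lower. For the principal cell list (Aqp2, Aqp3, Avpr2, Scnn1b, Scnn1g, Fxyd4 and Hsd11b2) it was 554 to 925 CPM in controls and 418 to 751 CPM in KO, with overlap (911 and 925 CPM in controls without control 3, with none), and 1 of the 6 tested was lower. This list leaves out Scnn1a, which was lower (log2 fold change -1.47, edgeR adjusted p = 0.0189), and Aqp4, which did not pass (0.20, edgeR adjusted p = 0.695). Hsd11b2, which keeps cortisol and corticosterone off the aldosterone receptor, measured 55.2, 53.3 and 58.5 CPM in controls and 48.0, 52.3 and 56.2 CPM in KO (log2 fold change -0.09, edgeR adjusted p = 0.649). Fxyd4, a regulator of the sodium pump, measured 31.1, 31.2 and 30.3 CPM in controls and 41.5, 52.3 and 34.5 CPM in KO, and its log2 fold change of 0.47 did not pass (edgeR adjusted p = 0.0916). A difference between the principal and the intercalated lists was not tested.

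The proton pump also has subunits that nearly all cells make. Of 15 such genes, 6 fell and 0 rose, with a median log2 fold change of -0.40. Atp6v1e1 (-0.73, edgeR adjusted p = 0.00208), Atp6v1a (-0.98, 0.00268), Atp6v1b2 (-0.63, 0.0113) and Atp6v1d (-0.46, 0.0207) had the smallest p. The count was 3 with library size alone as scaling, 10 without control 3 and 2 or 3 without control 1 or any 1 KO sample. Atp6v1b1 counts per count of Atp6v1b2, the widely made B subunit, were 0.431, 0.453 and 0.711 in controls and 0.188, 0.194 and 0.215 in KO. For the a subunits, Atp6v0a4 per Atp6v0a1 was 0.882, 1.07 and 1.55 in controls and 0.291, 0.324 and 0.300 in KO. Both ratios were lower in 3 of 3 KO samples without overlap, by log2 differences of -1.38 and -1.90 (exact permutation p = 0.1 each, adjusted over 10 ratios 0.25).

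**Figure D3:**
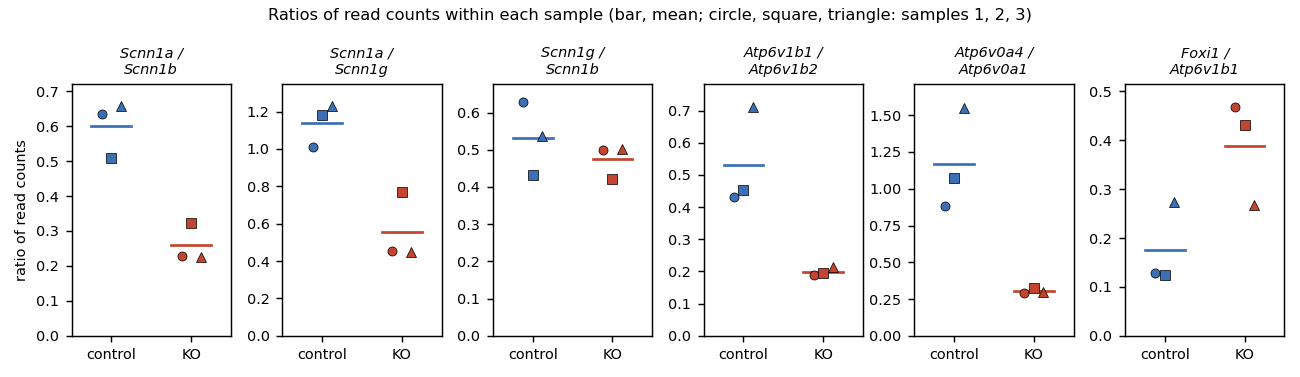
Read count of one gene divided by that of another in the same sample (vertical axis, from 0, no unit) for 6 of the 10 ratios, in 3 control and 3 KO samples with bars at the means. The KO points lie below all control points for Scnn1a over Scnn1b, Scnn1a over Scnn1g, Atp6v1b1 over Atp6v1b2 and Atp6v0a4 over Atp6v0a1, and the groups overlap for Scnn1g over Scnn1b and Foxi1 over Atp6v1b1.

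Among 20 genes that act on ENaC or drive sodium and potassium transport with it, 7 fell and 0 rose, with a median of -0.45. The 4 with the smallest p were 2 potassium channels, a sodium pump subunit and a deubiquitinase. Kcnj1, the luminal potassium channel ROMK of the duct and the thick limb, measured 44.1, 59.4 and 60.1 CPM in controls and 8.38, 11.3 and 7.60 CPM in KO (log2 fold change -2.58, edgeR adjusted p = 1.92e-04). Atp1b1, the beta subunit of the sodium pump, had a log2 fold change of -1.53 (9.42e-04), Kcnj10, a basolateral channel of the distal nephron, -2.34 (0.00164) and Usp2, an enzyme known to deubiquitinate ENaC, -1.48 (0.00226). Most of these genes are also made in other tubule segments.

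Of 15 genes of vasopressin and prostaglandin signalling or vesicle traffic in principal cells, 14 were tested, 5 fell and 0 rose, with a median of -0.37. The prostaglandin E2 receptor Ptger3, which lowers cyclic AMP, measured 14.5, 23.7 and 17.3 CPM in controls and 6.39, 6.56 and 5.74 CPM in KO (log2 fold change -1.57, edgeR adjusted p = 0.00242). Vamp2, a vesicle protein that takes part in the delivery of Aqp2, had a log2 fold change of -0.57 (0.0109). The receptors Ptger1 and Avpr1a had values of -0.69 (0.0146) and -1.15 (0.0233). This count was 2 with library size alone, 8 with limma voom and 1 or 2 without any 1 KO sample.

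Of 16 transcription factors active in the duct, 2 fell, 1 rose and 13 did not pass, with a median of -0.02, against 8.23% lower and 6.36% higher among all genes. Foxi1 and Tfcp2l1 are in this list as well as among the intercalated genes, and a difference between the lists was not tested. The 2 lower factors became 1 without control 1 or any 1 KO sample, and the 1 higher became 0 without control 1, KO 1 or KO 2. Tfap2b (-1.76, edgeR adjusted p = 0.00357) and Lhx1 (-0.74, 0.0309), which are also factors of the distal tubule and of early nephrons, were lower. Sox9 measured 14.0, 16.8 and 16.4 CPM in controls and 40.1, 29.1 and 22.9 CPM in KO (log2 fold change 0.96, edgeR adjusted p = 0.0194). Gata3, which marks the ureteric bud and its derivatives, had 65.1, 48.8 and 59.7 CPM in controls and 82.4, 103 and 65.5 CPM in KO, a log2 fold change of 0.53 that did not pass (edgeR adjusted p = 0.0931).

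Of 21 genes of ureteric epithelium, 0 fell and 4 rose, with a median of 0.29. They were the keratin Krt19 (log2 fold change 1.60, edgeR adjusted p = 0.0108), Sox9, the calcium-binding protein Calb1 (0.56, 0.0274) and the ureteric tip receptor Ret (0.92, 0.0329). The 4 became 1 without control 1, KO 1 or KO 2, 2 without KO 3 and 0 at an adjusted p under 0.01, and the Calb1 call was lost when any sample other than control 3 was left out. Ret measured 63.3, 88.8 and 42.7 CPM in controls and 127, 124 and 119 CPM in KO. Hoxb7, a marker of the whole ureteric tree, had 61.6, 75.1 and 55.4 CPM in controls and 57.8, 65.1 and 61.9 CPM in KO (log2 fold change -0.06, edgeR adjusted p = 0.842). In the 8 genes of urothelium, the lining of the urinary tract that also comes partly from the ureteric bud, 4 rose and 0 fell, with a median of 1.44. Upk3a measured 16.2, 20.9 and 14.7 CPM in controls and 126, 123 and 40.1 CPM in KO (log2 fold change 2.49, edgeR adjusted p = 0.00483), and Krt20 (1.92, 0.0161), Upk3b (1.42, 0.0258) and Krt5 (2.94, 0.0329) were the other three. KO 1 was the highest sample for each of these 4 genes. The count was 1 without control 1 or at an adjusted p under 0.01, and 7 without KO 3.

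**Figure D4:**
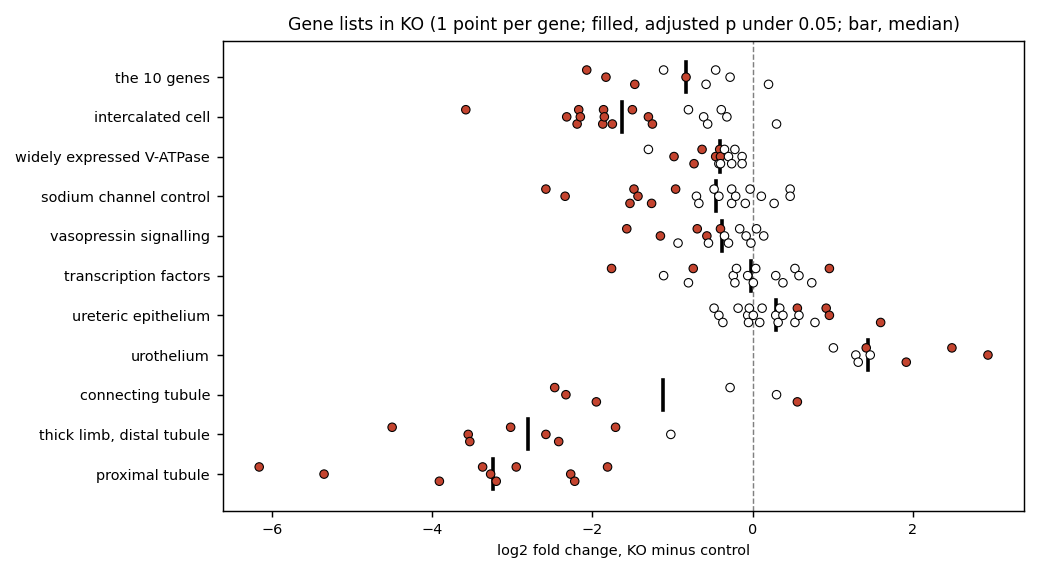
Log2 fold change of KO minus control (horizontal axis) for each tested gene of the 10 and of 10 lists (rows), 1 point per gene, filled where the edgeR adjusted p is under 0.05, with a bar at each median. The medians run from -3.24 in proximal tubule and -1.62 in intercalated cells to 0.29 in ureteric epithelium and 1.44 in urothelium.

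Markers of tubule segments outside the duct moved in the same samples. All 10 proximal tubule genes and 7 of 8 thick limb and distal tubule genes were lower, with medians of -3.24 and -2.80 and summed levels of 1066 to 1424 CPM in controls and 113 to 157 CPM in KO for the latter. The connecting tubule list summed to 569.7 to 752 CPM in controls and 441 to 516 CPM in KO. Of its 6 genes, S100g (-2.47, edgeR adjusted p = 1.78e-04), Trpv5 (-2.33, 0.00160) and Klk1 (-1.95, 0.0228) fell and Calb1 rose. Scnn1b and the exchanger Slc8a1 did not pass (edgeR adjusted p = 0.438 and 0.148). No defining marker of these segments was at 0 in any library, and the part of these cells in the results for the 10 genes was not tested.

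Other aquaporins gave values of both signs. Of 7, 6 were tested, 3 fell and 2 rose. Aqp1, the channel of the proximal tubule and thin limb, measured 354, 391 and 328 CPM in controls and 71.1, 72.0 and 79.3 CPM in KO (log2 fold change -2.27, edgeR adjusted p = 5.43e-05). Aqp11 and Aqp7, both found in the proximal tubule, had log2 fold changes of -1.98 (0.00367) and -2.03 (0.00957). Aqp9, a glycerol and urea channel of the liver, measured 0.183, 0.129 and 0.163 CPM in controls and 6.42, 5.84 and 11.5 CPM in KO (log2 fold change 5.60, edgeR adjusted p = 1.38e-04). Aqp5, named here because it lies between Aqp2 and Aqp6, measured 1.34, 2.20 and 1.28 CPM in controls and 5.05, 6.98 and 4.07 CPM in KO (log2 fold change 1.74, edgeR adjusted p = 0.01). Along this cluster the 3 log2 fold changes were thus -0.58 for Aqp2, 1.74 for Aqp5 and -1.83 for Aqp6.

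Methylation was read first within 1000 bases of each start, keeping each cytosine position that had 10 or more calls in all 9 RRBS samples. The strands of a CpG were not merged, so a CpG read on both strands counts as separate positions. Over 360390 such positions genome-wide, mean methylation was 50.87 to 51.21% in controls, 35.55 to 38.92% in KO and 50.66 to 51.26% in adults. Few positions remained for the genes described: 3 for Foxi1, 2 each for Aqp3 and Scnn1g, 1 each for Aqp2 and Aqp6, and none for Avpr2, Scnn1b and Atp6v1b1. Atp6v1b1, which had the lowest RNA fold change, had no position read in any sample within 2000 bases of its start. No start entry was used for Aqp4 and Scnn1a. Only Foxi1 had the 3 positions needed for the test across genes, a quasi-binomial model of the calls, which called 8.74% of 9789 start windows lower in KO.

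The Aqp2 position lies 2 bases before the start, at the last CpG of the sequence printed above. Its methylation was 82.5, 77.3 and 84.9% in controls (120, 216 and 126 calls), 61.4, 62.4 and 88.4% in KO (101, 109 and 43 calls) and 65.4, 81.9 and 66.9% in adults (52, 127 and 127 calls). KO samples 1 and 2 were below every control, and KO 3, with exact 95% binomial limits of 74.9 and 96.1%, was above them. The difference of KO minus control was -10.9 points (exact permutation p = 0.4). With at least 5 calls in every sample, 3 further positions at 78, 90 and 110 bases into the gene entered. These 3 had nearly equal call counts in each sample, so their calls come largely from shared reads and hold fewer independent molecules than calls. Over the 4 positions the means were 79.9 ± 3.27% in controls, 56.6 ± 17.1% in KO and 80.2 ± 13.1% in adults (SD, 3 samples per group). KO minus control was then -23.2 points (quasi-binomial adjusted p = 0.0229, with the moderated dispersion of limma). The share of all start windows called lower with at least 5 calls is not given here. The intervals and limits on single samples cover counting error only.

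The 3 Foxi1 positions lie 103, 129 and 143 bases into the gene and had nearly equal call counts in each sample, so their calls come largely from shared reads. Mean methylation was 74.4, 72.0 and 69.5% in controls, 31.3, 33.0 and 80.0% in KO and 60.4, 80.7 and 78.5% in adults. KO samples 1 and 2 were far below every control, while KO 3 was above every control. Summed over the 3 positions, the KO samples had only 45, 64 and 30 calls, and since these share reads they hold fewer independent molecules than that, so no interval is given. KO minus control was -23.8 points (exact permutation p = 0.4, quasi-binomial adjusted p = 0.145 with the moderated dispersion of limma). Without KO 3 it was -39.8 points (quasi-binomial adjusted p = 0.00686, limma dispersion). RNA and RRBS samples of the same number are not known to share an animal, so these values cannot be set against Foxi1 RNA by sample.

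At the positions read within 1000 bases, the other starts had low methylation in every group. The 2 Aqp3 positions, 709 and 749 bases before the start, averaged 3.89 ± 0.731% in controls and 4.58 ± 4.35% in KO (SD, 3 samples per group). The 2 Scnn1g positions averaged 3.41 ± 0.948% and 2.61 ± 3.14%. With at least 5 calls, 18 Scnn1g positions averaged 1.09 ± 0.931% in controls and 1.36 ± 0.668% in KO. These include 7 CpGs of the printed sequence, at -196, -165, -159, -157, -147, -122 and -95. At the same depth 7 Scnn1b positions averaged 1.48 ± 1.76% in controls and 0.190 ± 0.330% in KO. The Aqp6 position lay 972 bases before the start. It had 0 methylated calls in all 9 samples. The exact 95% binomial upper limits were 4.62, 2.95 and 8.04% in controls and 4.99, 6.72 and 12.8% in KO. Aqp3 and Aqp6 RNA levels were lower in KO and the Scnn1g and Scnn1b levels did not pass. The mean methylation of these starts in controls was 3.89% or less at the positions read within 1000 bases. Within 2000 bases, 2 more Scnn1g positions entered, 1175 and 1205 bases into the gene. The first measured 81.16, 81.15 and 93.44% in controls and 65.98, 60 and 76.92% in KO. The second measured 73.53, 77.6 and 61.67% in controls and 53.19, 54.55 and 58.33% in KO. The 4 positions, low and high together, averaged 40.7% in controls and 32.1% in KO (-8.70 points, quasi-binomial adjusted p = 0.0289). The 2 added positions are counted again inside the gene bounds below. The share of all such windows called was not computed. At the same distance 4 Aqp3 positions averaged 11.8% and 15.2% (3.36 points, quasi-binomial adjusted p = 0.317). In all genes, 870 start windows were over 50% methylated in controls, and their median KO difference was -21.0 points.

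Inside the annotated gene bounds, a region added after seeing the data, 9 of the 10 genes had at least 3 positions. Methylation was lower in KO for 5 of them (Aqp4, Scnn1a, Scnn1b, Scnn1g and Atp6v1b1) and higher for 0. Of 13489 protein-coding genes tested the same way, 59.1% were lower and 0.0815% higher, so 5 of 9 is near the background. The median difference was -11.6 points over all genes. Without control 1, control 2 or KO 2, 3 of the 9 were lower (Aqp4, Scnn1b and Scnn1g each time).

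Scnn1b, read at 9 positions, measured 77.9, 80.7 and 77.0% in controls, 61.4, 51.3 and 53.1% in KO and 71.3, 77.5 and 71.7% in adults. KO minus control was -23.3 points (quasi-binomial adjusted p = 6.25e-04 with limma dispersion), and every KO sample was below every control. Scnn1g (6 positions) measured 74.3, 79.9 and 75.6% in controls and 61.3, 54.7 and 61.1% in KO, -17.6 points (0.00184). Both genes thus had lower methylation inside their bounds, with RNA changes of -0.28 and -0.46 that did not pass. Scnn1a (9 positions) measured 41.4, 41.1 and 37.4% in controls and 31.6, 24.4 and 25.4% in KO, -12.8 points (0.0431). Aqp4 (7 positions) measured 27.6, 33.3 and 33.6% in controls and 21.0, 19.5 and 17.9% in KO, -12.0 points (0.00153).

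Atp6v1b1 was read at 3 positions, 13548 to 13569 bases into the gene. They averaged 80.8, 81.2 and 76.4% in controls, 67.9, 33.3 and 55.6% in KO and 89.6, 76.8 and 75.7% in adults. The KO samples were all below the controls and spread more widely, and KO minus control was -27.2 points (quasi-binomial adjusted p = 0.0344 with limma dispersion). The 3 positions had nearly equal call counts in each sample, with 12 calls at each in KO 3. Their calls thus come largely from shared reads and hold fewer independent molecules than calls. Aqp2 had 8 positions, 7 of them in a stretch 4895 to 4937 bases into the gene where methylation was at or near 0. They averaged 8.46, 5.23 and 4.31% in controls and 2.99, 1.03 and 1.79% in KO, -4.06 points, which did not pass (0.286). Aqp6 (-11.3 points, 0.191), Aqp3 (6.72 points, 0.738) and Foxi1 (-23.8 points, 0.0598, the same 3 positions as at its start) did not pass either.

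**Figure D5:**
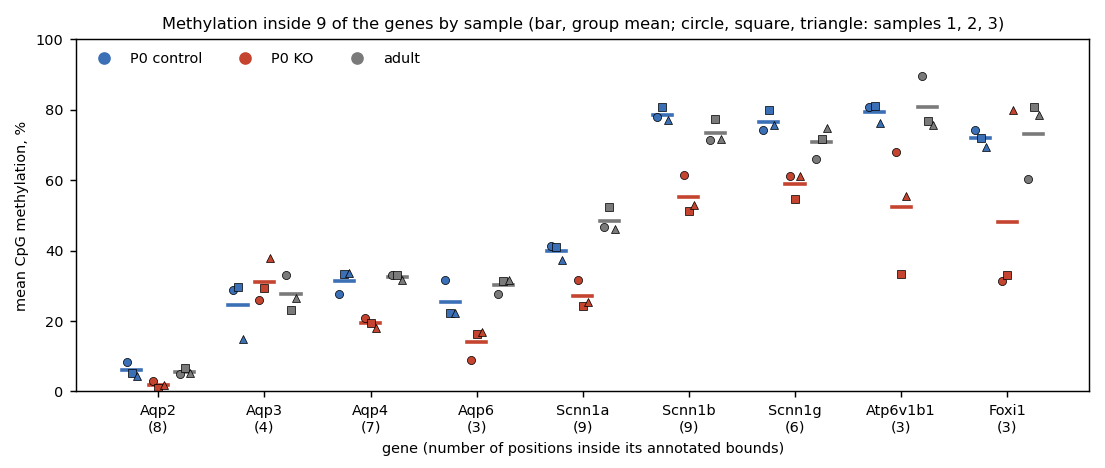
Mean CpG methylation in percent (vertical axis, 0 to 100) inside the annotated bounds of 9 of the genes (horizontal axis, with the number of positions) in 3 P0 control, 3 P0 KO and 3 adult samples, with bars at the group means. KO points lie below all control points for every gene shown except Aqp3 and Foxi1, and KO 3 is the highest KO point for Foxi1, at 80.0%. The share of all genes without such overlap was not computed, and 59.1% of all genes tested were called lower in KO.

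Adults were compared with P0 controls to place the KO values beside the mature kidney. Inside the gene bounds, 1 of the 9 genes was lower in adults (Scnn1b, -5.03 points, quasi-binomial adjusted p = 0.0316 with limma dispersion) and 2 were higher (Aqp6, 4.92 points, 0.00427, and Scnn1a, 8.42 points, 0.0330). Over all genes, 17.7% were lower and 8.05% higher, with a median difference of -0.555 points. Scnn1a measured 46.6, 52.4 and 46.1% in adults, all above the P0 controls. For Aqp6 (27.7, 31.4 and 31.8% against 31.6, 22.2 and 22.3%) and Scnn1b the groups overlapped. The Scnn1b call was lost without control 2, control 3 or any 1 adult, and the Scnn1a call without control 1, control 3, adult 2 or adult 3. Adults also differ from controls in genotype, since they are wild type, so age and genotype cannot be told apart.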

How the data were processed

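Per the submitters' processing notes, Trim Galore, Bismark, STAR 2.4.1d and HTSeq 0.6.1 were used, with builds mm10 and GRCm38; which tool made which file, and the strand setting, are not given in the sources used here. Per the labels' protocols, RNA libraries were made from poly A RNA and RRBS libraries with a commercial kit. The deposited RNA files give raw read counts per gene, and lines of unassigned reads were left out. In the deposited RRBS files each cytosine position has a percent methylated beside its counts of methylated and unmethylated calls. Of 75917 positions read in RefSeq promoter sequences (GRCm38.p6), 75916 lay at a CpG.

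Counts were tested with edgeR 4.0.16 in R 4.3.3 (quasi-likelihood test, TMM, filterByExpr, Benjamini-Hochberg over 18132 genes, threshold 0.05), using all 6 RNA samples. CPM values use TMM library sizes, and SEs come from the F statistic. Methylation was averaged per position and tested with two-sided exact permutation tests and a quasi-binomial model with dispersion moderated by limma 3.58.1 and not under 1. Named genes were the 10 genes, Dnmt1, in each list the 4 smallest p and genes shared between lists, and the 3 closest profiles to Aqp2 and Foxi1 (mean log2 CPM of at least 3, pseudocount 0.5). The genes and lists were chosen with earlier results of these data known. Alternatives were DESeq2 1.42.0, limma voom, the replicate number as a block, other scalings, filters, thresholds, coverage minimums (5 and 20), windows (500 and 2000 bases) and each sample left out. The fits were tested on simulated data.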

Additional observations from a re-analysis of the deposited data

How the results depend on the processing

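Atp6v1b1 and Aqp6 passed in each of 13 alternatives, and at an adjusted p under 0.01 in the edgeR fit of all samples. The number of the 10 genes lower in KO was 4, became 2 at an adjusted p under 0.01, and ranged from 2 to 5 with each sample left out. In the other collecting duct lists pooled (98 tested), 32 fell and 4 rose. The 32 became 17 at an adjusted p under 0.01 and ranged from 18 to 45 with each sample left out. The 4 became 7 with DESeq2, 9 with limma voom and 0 at an adjusted p under 0.01, and ranged from 1 to 6 with each sample left out. Urothelium genes higher in KO were 7, in place of 4, with DESeq2 or with no filter on low counts, 1 at an adjusted p under 0.01, and 1 to 7 with each sample left out. Ureteric epithelium genes higher in KO, 4, were 7 with limma voom and 1 to 6 with each sample left out.

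Reversed values were Aqp4 RNA without KO 2 (-0.05, and up to 0.43 without another sample), the log2 difference of Aqp6 per Atp6v1b1 (0.17) without control 3 (-0.27) or without KO 2 (-0.004; up to 0.39 without another sample), and Foxi1 start methylation of adults minus controls (1.27 points) without adult 2 (-2.47 points) or adult 3 (-1.38 points); with each sample left out the last ranged from -2.47 to 7.67 points. Start methylation of KO minus control also changed sign for Aqp3 (0.685 points, -1.36 without KO 1). For Scnn1g (-0.800 points) it did so without KO 3 (0.504) and with at least 5 calls (0.269). With at least 5 calls, adults minus controls changed sign for Aqp2 (from -10.2 to 0.353 points) and Scnn1g (from -2.50 to 0.276 points). None of these passed a test, and the cause was not tested. Foxi1 start methylation of KO minus control stayed at -23.8 points with dispersion 1, where it passed (adjusted p = 9.26e-07), and ranged from -39.8 to -15.5 points with each sample left out. The 5 genes with lower methylation inside their bounds in KO became 8 with dispersion 1 and ranged from 3 to 5 with each sample left out. In adults, the 1 lower gene became 2 with dispersion 1 and 0 to 1 with each sample left out, and the 2 higher ranged from 1 to 2.

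Same-numbered control and KO samples did not deviate together (correlations of -0.272, -0.0895 and -0.140 for RNA, -0.0330, 0.0291 and 0.0135 for RRBS). Paired samples can also lack such a correlation, so whether the numbers pair the samples is not known. With the replicate number as a block, the 4 genes lower in KO remained, vasopressin list genes lower in KO went from 5 to 2 and widely made pump subunits from 6 to 3, start windows of all genes lower in KO went from 856 to 298, and inside the gene bounds 4 genes were lower in KO, 0 lower and 1 higher in adults. Depth limits Avpr2 RNA and every start window with fewer than 3 positions.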

Other observations

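Marker lists of other kidney cells gave these counts in the same RNA fit of edgeR. All 7 podocyte genes fell, with a median log2 fold change of -1.98 and a summed level of 791 to 1141 CPM in controls and 289 to 373 CPM in KO. Of 7 endothelial genes 5 fell (median -0.75), and of 8 nephron progenitor genes 3 fell and 2 rose (median -0.25). Of 8 stromal genes 3 rose and 0 fell (median 0.36), and of 6 leukocyte genes 2 rose and 0 fell (median 0.60). Of 6 red cell genes 1, Slc4a1, fell, with a summed level of 404 to 1289 CPM in controls and 616 to 912 CPM in KO.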
